A study of Mus musculus with 15 samples.

Results

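The genes described here are 10 members of the epidermal growth factor (EGF) system, 7 ligands (Areg, Ereg, Epgn, Hbegf, Tgfa, Btc and Nrg1) and 3 receptors (Egfr, Erbb2 and Erbb3). They were taken by symbol, and all 10 were found among the 24027 gene symbols that the 4 deposited tables have in common. The tissue was skin from female SKH1 mice, analysed by RNA-seq. SKH1 is a hairless strain in which chronic ultraviolet B irradiation gives actinic keratoses, the keratinocyte lesions that can precede squamous cell carcinoma. Mice aged 6 to 8 weeks were irradiated, per the labels, and the course was 500 J/m2 on 5 days a week over 10 weeks. There were 15 libraries in 5 groups of 3. Mice on placebo cream gave 4 kinds of skin: lesional, perilesional (next to a lesion), non-lesional (taken here as irradiated, since another group is unexposed) and unexposed (non-UV). Mice on GZ21T cream gave lesional skin. Either cream was applied at 0.25 g on 5 days a week, and all 5 groups share strain and sex. The table headers name a back skin group and no unexposed group. Back skin was taken here as the unexposed group by elimination, and every comparison with unexposed skin rests on that. Wherever it is the reference, body site and exposure cannot be told apart.

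The files hold a log2 fold change, a Wald statistic (the fold change divided by its standard error), a p-value and an adjusted p for each gene, and no value for a single library. Levels can therefore be given only relative to another group, depth is unknown, and whether individual libraries overlap cannot be read. Control numbers 1 to 3 recur in the 4 placebo groups, but the labels do not say whether a number is 1 mouse, and nothing ties each library to an animal of its own. The p-values then measure only library-to-library spread, part of which may be technical. Markers of cell types were looked up to describe the samples. In every table all 7 basal markers and 5 of 6 suprabasal markers had an adjusted p and so passed the authors' filter on low counts. All 6 fibroblast and all 6 skeletal muscle markers passed in every table too, so passing does not tell one tissue from another. Of 5 melanocyte markers, 3 or 4 passed in the other tables and 0 in that of GZ21T over placebo lesions. That table kept 10899 genes, against 14124 to 15201 in the others. A gene is called changed here at an adjusted p under 0.05 over all genes tested.

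The EGF family works through membrane receptors that pair up when a ligand binds and then switch on their tyrosine kinases. Most ligands are made as membrane-anchored precursors and are released by metalloproteases of the ADAM family. Amphiregulin (Areg), epigen (Epgn) and transforming growth factor alpha (Tgfa) bind EGFR (Egfr), epiregulin (Ereg), heparin-binding EGF-like growth factor (Hbegf) and betacellulin (Btc) bind EGFR and ERBB4, and neuregulin 1 (Nrg1) binds ERBB3 and ERBB4. ERBB2 has no known ligand of its own and serves as the partner of the others. In the epidermis the pathway is known for keratinocyte proliferation, wound closure and restraint of terminal differentiation.

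Position is a feature of the ligand genes that the choice by name did not use. Epgn, Ereg, Areg and Btc are the 4 protein-coding genes in a stretch of 376 kb on mouse chromosome 5 (GRCm38, GENCODE mouse release 21). Epgn lies at 91027464 to 91035215, Ereg at 91074622 to 91093646 and Areg at 91139599 to 91148432, all on the plus strand, and Btc lies at 91357261 to 91402994 on the minus strand.

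The calls differed between neighbours in this cluster, as described next, and the promoters of 3 of them are shown. Areg was called higher and Btc lower in lesions than in unexposed skin. Epgn was called lower in GZ21T-treated than in placebo lesions, a different comparison. In lesional over unexposed skin Areg and Epgn were both positive, at 1.98 and 0.66. In non-lesional over unexposed skin they were at 0.43 and -0.76, neither called. A link between promoter letters and these values was not tested. Each window runs from 250 bases before to 50 bases after the start that the RefSeq table uses, on GRCm38.p6, and is written on the gene's own strand. For Areg and Btc that start is the GENCODE gene start, and for Epgn it is 91027517, which is 53 bases after the GENCODE start. Capitals mark matches to a cAMP response element (TGACGTCA) or a TATA motif (TATAAA), both searched on both strands. The windows are chr5:91139349-91139648 (plus) for Areg, chr5:91027267-91027566 (plus) for Epgn and chr5:91402945-91403244 (minus) for Btc.
Areg: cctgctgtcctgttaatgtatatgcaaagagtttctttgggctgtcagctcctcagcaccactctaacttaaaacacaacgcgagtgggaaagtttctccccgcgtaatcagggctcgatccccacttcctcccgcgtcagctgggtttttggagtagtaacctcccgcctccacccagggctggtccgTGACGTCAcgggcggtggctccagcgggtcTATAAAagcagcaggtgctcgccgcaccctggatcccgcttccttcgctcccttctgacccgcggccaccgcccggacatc
Epgn: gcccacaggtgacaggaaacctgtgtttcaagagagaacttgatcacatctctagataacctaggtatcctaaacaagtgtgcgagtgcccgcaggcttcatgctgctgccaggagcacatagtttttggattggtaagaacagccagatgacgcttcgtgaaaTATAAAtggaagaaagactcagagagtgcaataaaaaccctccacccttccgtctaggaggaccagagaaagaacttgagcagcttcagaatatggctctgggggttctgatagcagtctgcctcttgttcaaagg
Btc: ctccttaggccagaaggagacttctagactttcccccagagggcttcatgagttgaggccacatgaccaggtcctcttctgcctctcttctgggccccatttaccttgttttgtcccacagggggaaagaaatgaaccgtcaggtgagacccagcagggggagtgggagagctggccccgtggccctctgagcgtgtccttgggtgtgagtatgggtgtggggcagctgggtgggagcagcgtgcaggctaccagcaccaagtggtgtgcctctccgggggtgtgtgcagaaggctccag

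In the Areg window the cAMP response element began 61 bases before the start and the TATA motif 31 bases before it. In the Epgn window a TATA motif began 86 bases before the RefSeq start, which is 33 bases before the GENCODE start, and the Btc window held neither. The AP-1 motif TGACTCA was searched too and was in none of the 6 member promoters found in the table. Of 32851 promoters of this length 1.79% held the cAMP response element, 13.6% the TATA motif and 5.2% the AP-1 motif. None of these motifs overlaps another in the windows shown, and a match is a description of the letters. Ereg, Hbegf, Nrg1 and Erbb3 had no promoter in the table.

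Of the other ligand genes, Tgfa lies on chromosome 6 at 86195223 to 86275719 (plus), Hbegf on chromosome 18 at 36504927 to 36515805 (minus) and Nrg1 on chromosome 8 at 31814551 to 32884029 (minus). Of the receptors, Egfr lies on chromosome 11 at 16752203 to 16918158 (plus), Erbb2 on chromosome 11 at 98412470 to 98437716 (plus) and Erbb3 on chromosome 10 at 128567523 to 128589652 (minus). Ereg, Tgfa, Nrg1, Egfr and Erbb2 each overlap at least 1 annotated gene on the opposite strand, among them an antisense gene at Ereg and another at Egfr. The library kit keeps strand, but whether the counting used it is not given in the sources used here, so reads of these partners may be mixed in.

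Across the 5 groups the ligand values spread more widely than those of the receptors, which stayed close to their level in unexposed skin. The span between the highest and the lowest group, on the log2 scale, was 3.36 for Nrg1, 2.47 for Ereg, 2.38 for Epgn, 2.30 for Hbegf, 2.26 for Btc, 1.98 for Areg and 1.73 for Tgfa. For the receptors it was 0.47 for Erbb2, 0.35 for Egfr and 0.20 for Erbb3. The spans carry no standard error, and less certain values widen a span. In lesional over unexposed skin the standard errors ran from 0.44 (Tgfa) to 0.67 (Nrg1) for ligands. For receptors they ran from 0.17 (Egfr) to 0.28 (Erbb3). Their part in the spans was not tested. Placebo lesions held the highest value of every ligand other than Btc, for which they held the lowest.

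**Figure D1:**
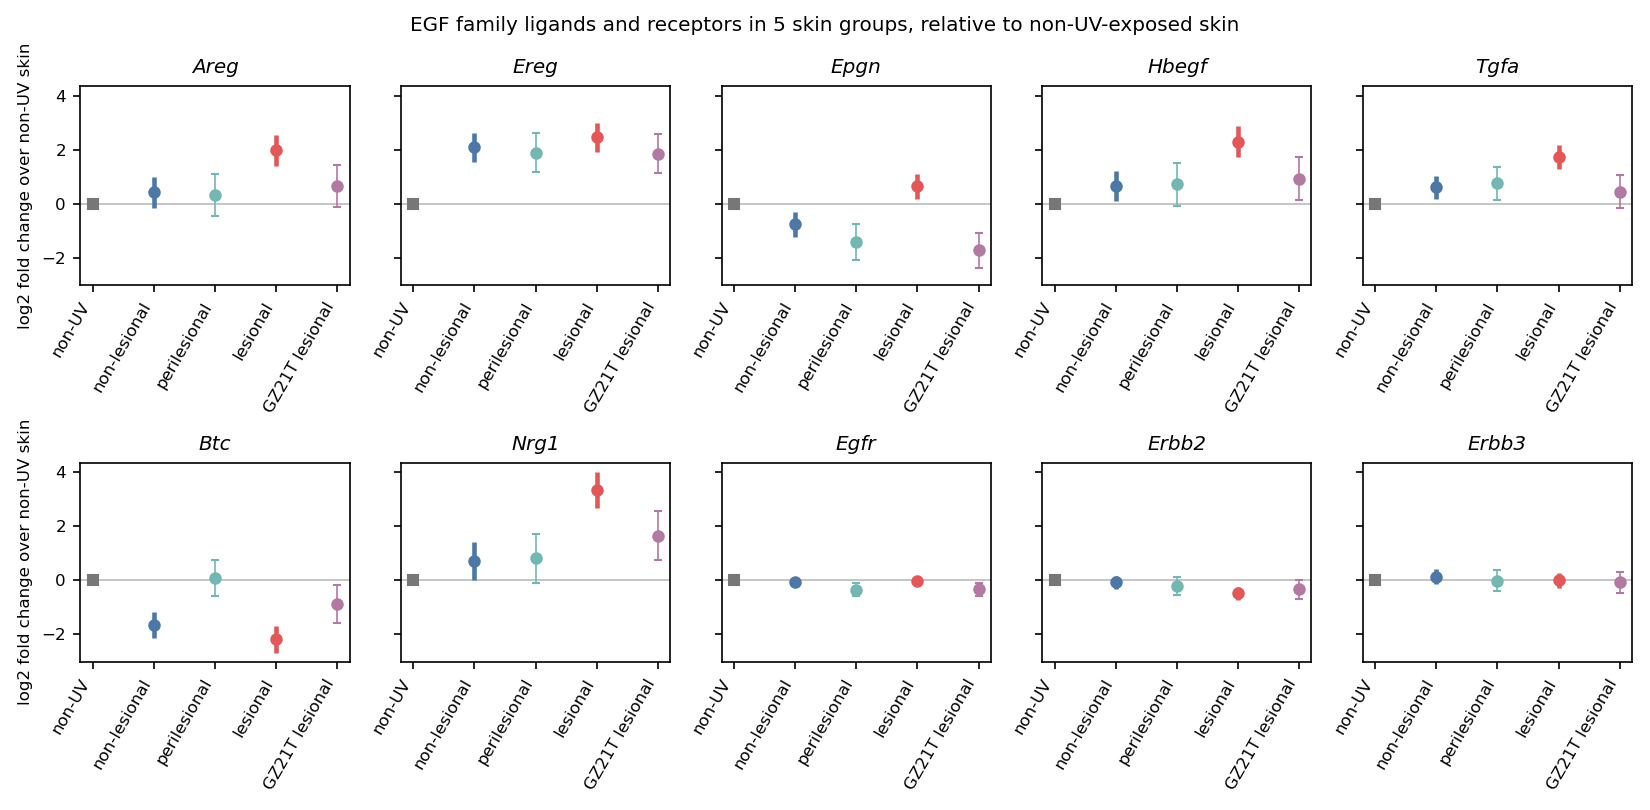
Each panel plots 1 gene's log2 fold change over non-UV-exposed skin in the 4 other groups, with the reference drawn as a square at 0. Thick bars are ± 1 standard error, and thin capped bars are ± the largest standard error that the tables allow, for the 2 groups with no table against unexposed skin. Lesional skin is the highest point for 6 of 7 ligands and the lowest for Btc, and the 3 receptors lie within 0.47 of the reference.

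Placebo lesions were compared with unexposed skin to ask which members differ in the established lesion. By the authors' deposited table Nrg1, Ereg, Hbegf, Areg and Tgfa rose and Btc fell. That is 6 of 10 members changed, where 18.3% of the 15201 genes tested changed (10.2% higher and 8.17% lower). With fold changes centred on the median of all genes, the genes called split into 1244 higher and 1607 lower, against 1543 and 1242 as deposited. The members' median log2 fold change was 1.19, against 0.08 for all genes tested, and that of the 7 ligands was 1.98.

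Nrg1 had the largest difference, 3.36 ± 0.67 on the log2 scale (SE; 10.3-fold higher; adjusted p = 3.85e-05), by the authors' deposited table. Ereg, a ligand of both EGFR and ERBB4, was 2.47 ± 0.53 higher (5.55-fold; adjusted p = 0.000155) by the authors' deposited table. Hbegf, which is released at wound edges, was 2.30 ± 0.57 higher (4.92-fold; adjusted p = 0.00131) by the authors' deposited table. These 3 genes differed by more than 4 times their standard error. Areg, a growth factor that keratinocytes make for themselves, stood 1.98 ± 0.56 higher (3.94-fold; adjusted p = 0.00563) by the authors' deposited table. Tgfa, another keratinocyte growth factor, stood 1.73 ± 0.44 higher (3.31-fold; adjusted p = 0.00163) by the authors' deposited table. Btc went the other way, with a log2 fold change of -2.17 ± 0.50 (4.5-fold lower; adjusted p = 0.000456) by the authors' deposited table. Nrg1, Areg and Btc passed the filter on low counts in 3 of the 4 tables, and the other members in all 4.

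Epgn was at 0.66 ± 0.46 in lesional over unexposed skin (adjusted p = 0.334; 95% interval -0.25 to 1.56) by the authors' deposited table, and was not called. Neither were the receptors. Egfr, the main receptor of keratinocytes, was at -0.01 ± 0.17 (adjusted p = 0.968; 95% interval -0.34 to 0.32) by the authors' deposited table. Erbb3, the partner that lacks strong kinase activity, was at 0.00 ± 0.28 (95% interval -0.54 to 0.54) by the authors' deposited table, and Erbb2 was at -0.47 ± 0.24 (adjusted p = 0.165; 95% interval -0.95 to 0.01). The intervals of Egfr and Erbb3 exclude a doubling, which is 1 on this scale, in either direction. In these bulk samples a change in the number of cells of a type and a change in RNA per cell cannot be told apart. Neutrophil markers were higher for 3 of 4 tested, namely S100a8 at 4.69, S100a9 at 4.62 and Cxcr2 at 1.52. Csf3r, at 0.59, was not called and Retnlg has no adjusted p (all named after their values were seen). Endothelial markers were higher for 3 of 5 and sebocyte markers for 4 of 7, while suprabasal markers were lower for 2 of 5. Of 4 T cell markers 2 were lower (Cd3e at -1.48 and Cd3g at -1.52, named after their values were seen) and 1 was higher. Basal markers were lower for 2 of 7 and higher for 1. Hair follicle markers were lower for 1 of 8 with a median of -2.36. Adipocyte markers were higher for 1 of 5, the only positive value in that list, and lower for 0, with a median of -1.67. Skeletal muscle markers were positive for 6 of 6, with a median of 1.85 and 0 called. The part of these cells in the ligand values, those of Ereg and Btc included, was not tested, and the files give no summed marker levels. When the spread of the Wald statistic was taken from the genes themselves, 0 of the 6 calls held and 14 genes in all were called.

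**Figure D2:**
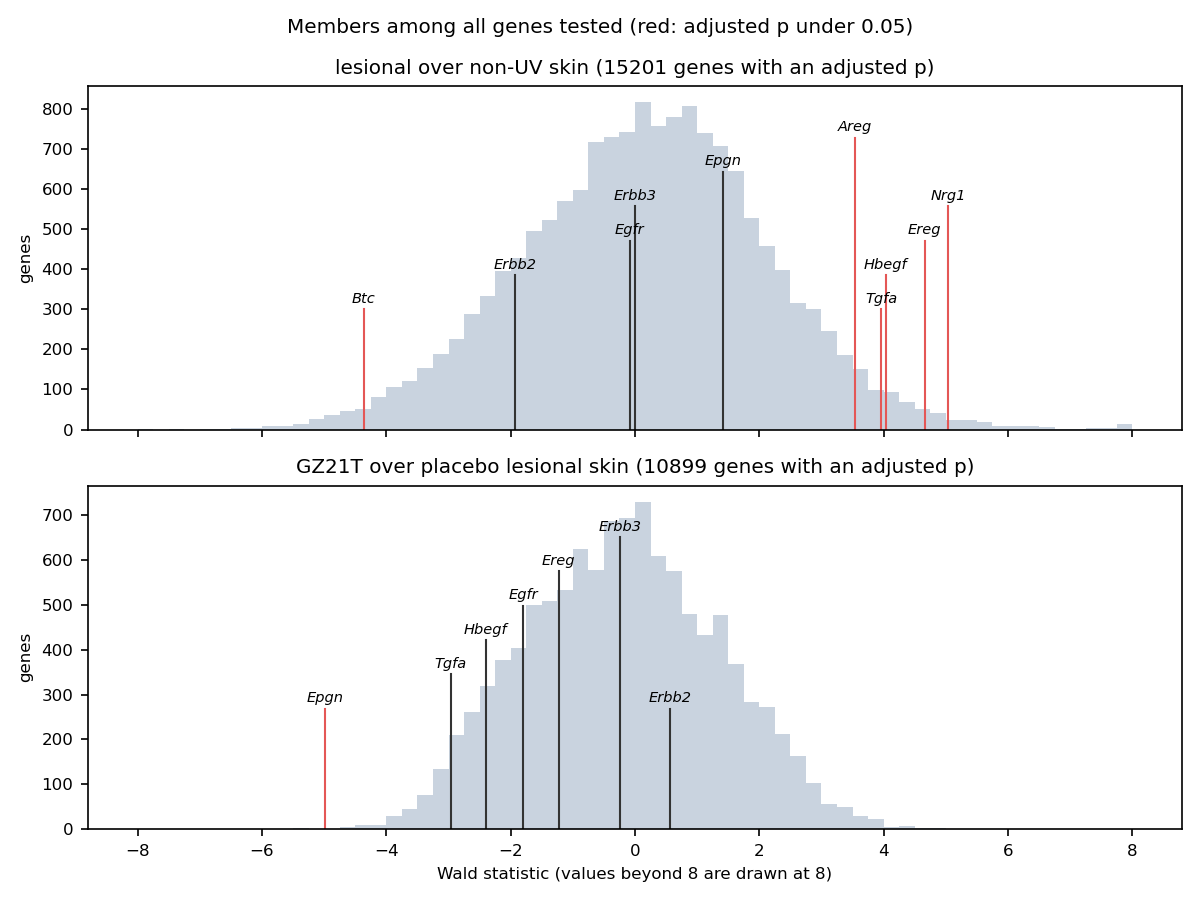
Histograms of the Wald statistic of all genes with an adjusted p, for lesional over non-UV skin (upper) and GZ21T over placebo lesional skin (lower), with lines at the members; red lines have an adjusted p under 0.05. In the upper panel 5 ligands stand to the right and Btc to the left, with Epgn and the receptors in the middle; in the lower panel Epgn stands furthest left, at -4.99.

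Irradiated skin without a lesion was next set against unexposed skin. Ereg was higher there and Btc lower, which makes 2 of 10 members changed where 1.66% of 14124 genes changed (1.13% higher and 0.531% lower). Ereg stood 2.10 ± 0.53 higher (4.29-fold; adjusted p = 0.0101) and Btc stood at -1.64 ± 0.48 (3.13-fold lower; adjusted p = 0.0416), both in the authors' deposited table. The Btc call was lost with no filter on low counts, where its adjusted p was 0.0553, and with the spread taken from the genes (adjusted p = 0.112).

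The other ligands did not pass in non-lesional over unexposed skin. The authors' deposited table gives Nrg1 0.72 ± 0.69, Hbegf 0.66 ± 0.57, Tgfa 0.61 ± 0.44 and Areg 0.43 ± 0.57, with adjusted p between 0.757 and 0.921. Epgn was at -0.76 ± 0.47 (adjusted p = 0.649) by the authors' deposited table. Egfr was at -0.05 ± 0.17, Erbb2 at -0.07 ± 0.24 and Erbb3 at 0.14 ± 0.28 there, in the authors' deposited table, with adjusted p of 0.951 or more. Among cell type markers, the non-lesional libraries had 2 of 5 macrophage markers lower, with a list median of -1.14, and 1 of 7 sebocyte and 1 of 7 basal markers lower. Of 4 neutrophil markers 1 was higher, within a range from -3.29 to 1.84, and of 4 T cell markers 1 was higher, within a range from -1.20 to 2.94. Skeletal muscle markers were positive for 6 of 6, with a median of 1.67 and 0 called. The part of those cells in the Ereg and Btc values was not tested.

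Skin around the lesion was compared with irradiated skin free of lesions. No member was called by the authors' DESeq2 test, and 1 of 10, Btc, had an unadjusted p under 0.05, where 0.112% of 15201 genes were called and 7.83% had such a p. The called genes were 14 higher and 3 lower, or 14 and 6 with fold changes centred on the median. Btc stood 1.73 ± 0.46 higher in perilesional skin (3.32-fold; adjusted p = 0.099) by the authors' deposited table. Relative to unexposed skin it was thus at 0.09 in perilesional skin, with a standard error between 0.13 and 0.67. Sebocyte markers were higher for 3 of 7 with a median of 2.74, and hair follicle markers were lower for 1 of 8 with a median of -4.25. Their part in the Btc value was not tested. The remaining ligands lay between -0.65 (Epgn) and 0.16 (Tgfa) by the authors' deposited table, and the receptors between -0.30 (Egfr) and -0.13 (Erbb2).

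Lesions were compared with the surrounding skin by a contrast derived from 3 of the tables. Epgn and Nrg1 were higher in the lesion and Btc was lower. This is 3 of 10 members changed, where 0.533% of 15187 genes changed (0.309% higher and 0.224% lower). Nrg1 stood 2.54 ± 0.62 higher (5.8-fold; adjusted p = 0.0175) and Epgn 2.07 ± 0.47 higher (4.2-fold; adjusted p = 0.00578). Btc had a log2 fold change of -2.25 ± 0.48 (4.77-fold lower; adjusted p = 0.003). With fold changes centred on the median, the called genes split into 35 higher and 43 lower, against 47 and 34 as derived. The perilesional libraries enter this comparison and that of perilesional over non-lesional skin with opposite sign.

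The remaining ligands had positive differences between lesion and surrounding skin that did not pass. Areg stood at 1.66 ± 0.54 (adjusted p = 0.145; 95% interval 0.61 to 2.71) and Hbegf at 1.57 ± 0.56 (adjusted p = 0.21; 95% interval 0.47 to 2.67). Tgfa stood at 0.96 ± 0.43 (adjusted p = 0.389) and Ereg at 0.57 ± 0.50 (adjusted p = 0.757). Egfr was at 0.34 ± 0.17 (adjusted p = 0.452), Erbb2 at -0.27 ± 0.24 and Erbb3 at 0.01 ± 0.28. Hair follicle markers had a median of 3.40 here, with 0 of 8 called, and suprabasal markers one of -0.93, with 0 of 5 called, and their part in these values was not tested. The Nrg1 call was lost with the largest of the 3 deposited standard errors (adjusted p = 0.0578). With the spread taken from the genes 0 members remained called, the adjusted p being 0.0796 for Epgn, 0.0553 for Btc and 0.168 for Nrg1.

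Lesional over non-lesional skin leaves the perilesional libraries out. Its fold change follows from 2 tables, but its standard error is known only within bounds, and the largest was used for the test. On that basis 0 of 10 members and 0% of 15182 genes were called, with 4 members and 7.92% of genes at an unadjusted p under 0.05. Nrg1 was at 2.64 ± 0.89, Hbegf at 1.64 ± 0.80, Areg at 1.55 ± 0.77, Epgn at 1.42 ± 0.66 and Tgfa at 1.12 ± 0.61, with adjusted p between 0.403 and 0.665. Ereg was at 0.37 ± 0.70 and Btc at -0.52 ± 0.67, the 2 members that were called in non-lesional over unexposed skin. If each group held an equal share of the variance, 701 genes would be called, among them Nrg1 (adjusted p = 0.00943) and Epgn (adjusted p = 0.0497).

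**Figure D3:**
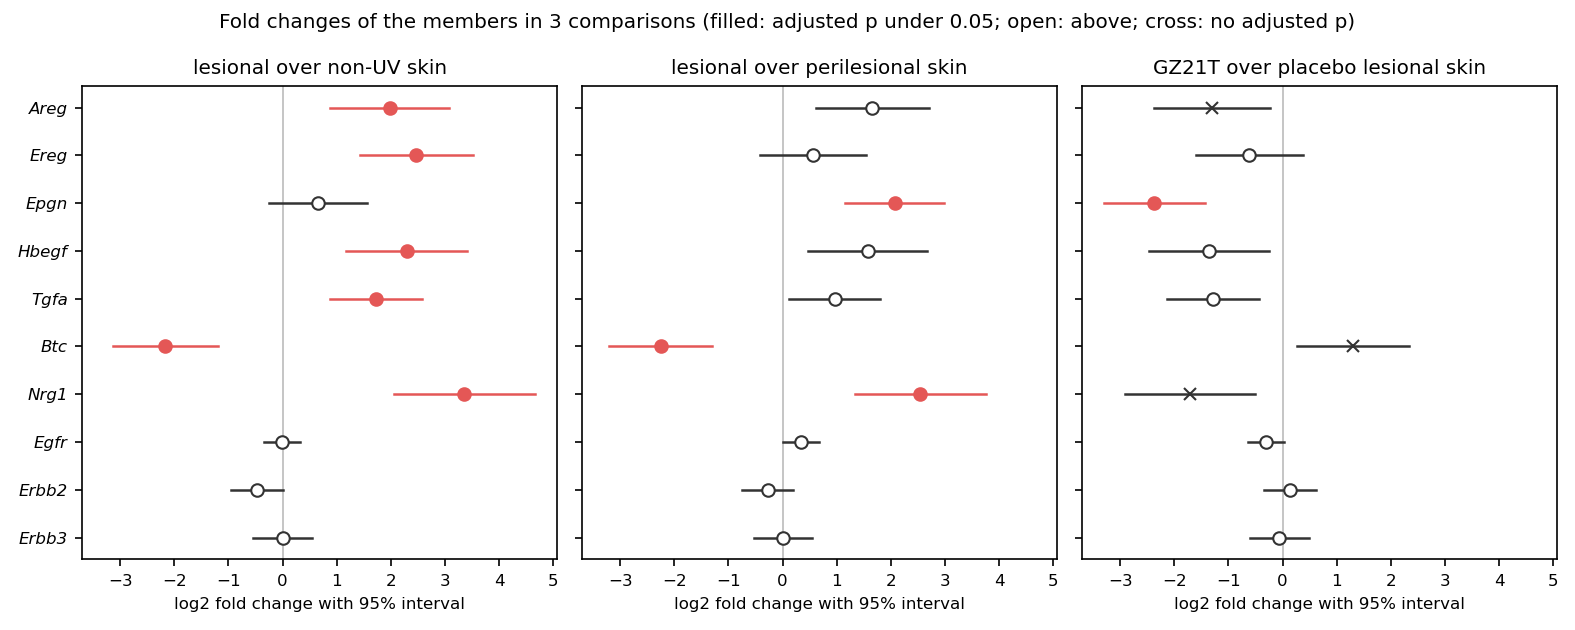
Log2 fold changes of the 10 members with 95% intervals in 3 comparisons; filled red points have an adjusted p under 0.05, open points do not, and crosses have no adjusted p. In lesional over non-UV skin 6 points are filled, in lesional over perilesional skin 3, and in GZ21T over placebo lesional skin only Epgn, at -2.37.

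GZ21T-treated lesions were compared with placebo lesions to ask which members differ with treatment. Epgn fell. Of the 7 ligands 6 had negative fold changes, but only 4 of the 7 have an adjusted p. The median of all genes tested was -0.06, and their share with a negative value was not counted. Called was 1 of the 7 members with an adjusted p, where 3.61% of 10899 genes changed (1.31% higher and 2.29% lower). With fold changes centred on the median the called genes split into 201 higher and 142 lower, against 143 and 250 as deposited. Epgn stood at -2.37 ± 0.48 (5.17-fold lower; adjusted p = 0.00135; 95% interval -3.30 to -1.44) by the authors' deposited table. In lesions under GZ21T it was at -1.72 relative to unexposed skin, with a standard error between 0.11 and 0.66, the lowest of the 5 groups.

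Tgfa stood at -1.28 ± 0.43 (2.43-fold lower; adjusted p = 0.0622), Hbegf at -1.36 ± 0.56 (adjusted p = 0.126) and Ereg at -0.62 ± 0.50 (adjusted p = 0.475) by the authors' deposited table, and none of them passed. Areg, Nrg1 and Btc have no adjusted p in this table, because the authors' filter on low counts removed them. Areg is given as -1.31 ± 0.54 (unadjusted p = 0.0162) and Nrg1 as -1.71 ± 0.62 (unadjusted p = 0.00563) by the authors' deposited table, from the DESeq2 Wald test. Btc is given as 1.30 ± 0.53 (unadjusted p = 0.0132) there, in the authors' deposited table, a positive value for the ligand that was low in placebo lesions. With the adjustment run over every gene with a p-value, these genes had an adjusted p of 0.197, 0.126 and 0.181. Of the receptors, Egfr was at -0.30 ± 0.17 (adjusted p = 0.265), Erbb2 at 0.14 ± 0.24 and Erbb3 at -0.06 ± 0.28 in the authors' deposited table.

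The placebo lesional libraries serve as reference here and as the test group in the lesion comparisons above, so signs that oppose each other share those libraries. Suprabasal markers were higher for 3 of 5 in GZ21T lesions, with values from 1.06 to 1.76. Of the neutrophil markers, S100a8 was at -3.19, S100a9 at -3.15 and Cxcr2 at 0.30, with 0 of 3 called. Csf3r, which has no adjusted p here, was at -2.11. Sebocyte markers had a median of -1.10 with 0 of 6 called, and hair follicle markers one of 1.96 with 0 of 6 called. The part of these cells in the Epgn value was not tested. With the spread taken from the genes 0 genes of any kind were called in this comparison, and the adjusted p of Epgn was 0.983.

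GZ21T lesions were also set against placebo non-lesional skin, a contrast that leaves the placebo lesions out of both its groups. By normal tails with Benjamini-Hochberg adjustment 0 of 10 members and 0% of 15187 genes were called, with 1 member and 3.31% of genes at an unadjusted p under 0.05. That member, Epgn, was at -0.95 ± 0.48 (adjusted p = 1; 95% interval -1.89 to -0.01). Nrg1 was at 0.94 ± 0.64, Btc at 0.78 ± 0.51, Hbegf at 0.28 ± 0.57, Areg at 0.24 ± 0.56, Tgfa at -0.16 ± 0.44 and Ereg at -0.24 ± 0.50. The intervals of these genes reach a doubling in at least 1 direction, so likeness of the groups is not shown. The receptors lay between -0.27 and -0.21.

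The order of the groups differed between ligands. For Nrg1 and Hbegf the ascending order was unexposed, non-lesional, perilesional, GZ21T lesional and placebo lesional skin, with values over unexposed skin of 0.72, 0.82, 1.65 and 3.36 for Nrg1 and 0.66, 0.73, 0.94 and 2.30 for Hbegf. For neither gene was non-lesional over unexposed or perilesional over non-lesional skin called, and GZ21T lesional against perilesional skin was not tested. For Ereg all irradiated groups stood together, at 2.10 in non-lesional, 1.90 in perilesional, 2.47 in lesional and 1.86 in GZ21T lesional skin. For Epgn the placebo lesion at 0.66 stood above non-lesional skin at -0.76, perilesional at -1.41 and GZ21T lesions at -1.72. For Btc the perilesional value of 0.09 and the GZ21T value of -0.87 stood above the non-lesional -1.64 and the lesional -2.17.

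Other genes of the pathway were counted in lists. In lesional over unexposed skin, 2 of 10 genes of ligand release were higher and 0 lower, a share near the 18.3% of all genes called. Adam10, a sheddase of Btc and other precursors, was 1.01 ± 0.25 higher (adjusted p = 0.00145), and Adam12 was 2.43 ± 0.86 higher (adjusted p = 0.0311) by the authors' deposited table. Adam17, the main sheddase of Areg, Tgfa and Hbegf, was named after its value was seen and was at -0.31 ± 0.12 (adjusted p = 0.0622) by the authors' deposited table. Centring on the median took Adam17 to -0.39 (adjusted p = 0.0143), which would make 1 gene of this list lower. Under GZ21T 0 of 9 tested genes of ligand release were called, with Adam10 at -0.69 ± 0.25 (adjusted p = 0.0838) by the authors' deposited table. Of the family members outside the 10, Egf, Nrg2, Nrg3, Nrg4 and Erbb4, 0 of those with an adjusted p were called. Nrg3 has none in any comparison, Erbb4 none in non-lesional over unexposed skin, and under GZ21T only Egf has one. Nrg2 came closest, at -1.28 ± 0.49 (adjusted p = 0.0508) in lesional over unexposed skin in the authors' deposited table, and centring on the median took it to -1.36 (adjusted p = 0.035). Nrg4 was at 1.56 ± 0.81 (adjusted p = 0.165) by the authors' deposited table.

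Of 25 signal relay genes 3 were higher and 2 lower in lesional than in unexposed skin, with a median of 0.15 against 0.08 for all genes, and the share called was near the 18.3% of all genes. The transcription factor Stat3 was 0.55 ± 0.13 higher (adjusted p = 0.000733), the kinase Akt1 0.47 ± 0.15 higher (adjusted p = 0.0165) and the ERK kinase Map2k1 0.90 ± 0.32 higher (adjusted p = 0.0291) by the authors' deposited table. The RAF kinase Araf stood at -0.64 ± 0.20 (adjusted p = 0.0111) and Pik3cb, a catalytic subunit of phosphoinositide 3-kinase, at -0.66 ± 0.23 (adjusted p = 0.0291) by the authors' deposited table. Stat3 was the 1 relay gene called in non-lesional over unexposed skin, at 0.63 ± 0.13 (adjusted p = 0.00038) by the authors' deposited table. Akt1 was the 1 called under GZ21T, at -0.51 ± 0.15 (adjusted p = 0.0356) by the authors' deposited table. Centring on the median ended both Akt1 calls, with adjusted p of 0.0533 and 0.0642.

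Of 21 receptor brakes and ERK feedback genes 5 were higher and 5 lower in lesional than in unexposed skin, where 10.2% of all genes were higher and 8.17% lower. Centring on the median left 2 higher and 5 lower, ending the calls of Dusp4 (adjusted p = 0.0515), Ptprj (adjusted p = 0.0792) and Socs5 (adjusted p = 0.102). With no filter on low counts 3 were higher and 5 lower. Lower were Spred2, at -1.35 ± 0.30 (adjusted p = 0.000282), Spry1, at -1.09 ± 0.29 (adjusted p = 0.00303), and Lrig2, at -0.71 ± 0.19 (adjusted p = 0.00261), by the authors' deposited table, with Lrig3 and the ubiquitin ligase gene Cbl. Spred2 and Spry1 encode inhibitors of the RAS and ERK route. Higher were the receptor phosphatase gene Ptprk, at 2.01 ± 0.48 (adjusted p = 0.000798) by the authors' deposited table, with Ptprj, Socs5 and the ERK phosphatase genes Dusp4 and Dusp6. Ptprk was also the 1 of 19 called under GZ21T, at -1.60 ± 0.47 (adjusted p = 0.0348) by the authors' deposited table, a call lost with no filter on low counts (adjusted p = 0.0554). Lrig3, Cbl, Ptprj, Socs5, Dusp4, Dusp6 and Pik3cb were named to complete the counts after their values were seen.

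Early response and output genes had 9 of 19 higher and 0 lower in lesional over unexposed skin, where 10.2% of all genes were higher and 8.17% lower. Their median was 0.83 against 0.08 for all genes, and 7 were higher with centring on the median. The stress keratins Krt6a, at 4.50 ± 0.51 (adjusted p = 2.28e-15), and Krt16, at 4.15 ± 0.45 (adjusted p = 1.72e-16), led in the authors' deposited table. Krt6a shares much of its sequence with Krt6b, so its reads are uncertain. Phlda1 was 2.52 ± 0.60 higher (adjusted p = 0.00084) and the AP-1 gene Junb 1.57 ± 0.35 higher (adjusted p = 0.000348) by the authors' deposited table. Under GZ21T 3 of 17 were lower and 0 higher, where 2.29% of all genes were lower and 1.31% higher, with a median of -0.78 against -0.06 for all genes. These were the cyclooxygenase gene Ptgs2, at -3.53 ± 1.00 (adjusted p = 0.0286), the AP-1 gene Fosl1, at -2.46 ± 0.75 (adjusted p = 0.0409), and the early response gene Ier3, at -2.03 ± 0.48 (adjusted p = 0.00808), by the authors' deposited table, named after their values were seen. The Fosl1 call was lost with no filter on low counts (adjusted p = 0.0654). In lesional over unexposed skin the authors' deposited table puts Ptgs2 at 3.66 ± 1.00 (adjusted p = 0.00424), Ier3 at 2.00 ± 0.48 (adjusted p = 0.000989) and Fosl1, which did not pass, at 1.57 ± 0.74 (adjusted p = 0.124). Krt16 was at 0.03 ± 0.45 under GZ21T (adjusted p = 0.981) by the authors' deposited table.

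**Figure D4:**
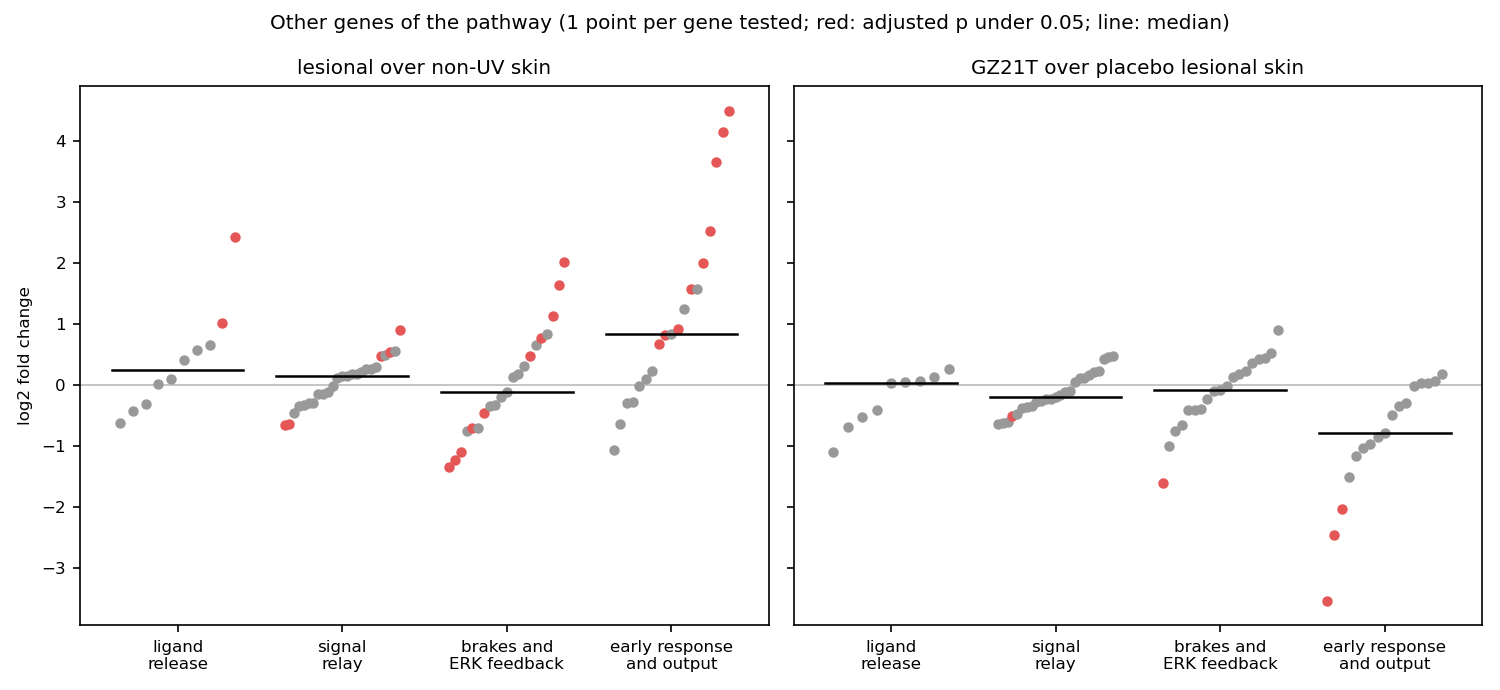
Log2 fold changes of the other pathway genes by list, 1 point per gene with an adjusted p and a line at the median, for lesional over non-UV skin (left) and GZ21T over placebo lesional skin (right). On the left 9 of 19 early response and output genes are red, all above 0; on the right 3 of 17 are, all below 0.

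Likeness of pattern was measured as the distance over the log2 fold changes of the 4 other groups relative to unexposed skin, among 10899 genes that all 4 tables give an adjusted p for. It was computed for the 2 members with the largest sum of squared Wald statistics, Btc and Ereg. Nearest to Ereg were Fbp2 at a distance of 0.26, Nos1 and Ppp1r3c at 0.42 each, and Slc34a2 at 0.43. Nearest to Btc were Cd3e at 1.00, Aldh3a1 and Daglb at 1.07 each, and Rgs10 at 1.11. None of the genes compared was thus as near to Btc as those above are to Ereg. Btc has no adjusted p under GZ21T and so lies outside the genes compared, and genes filtered out like it were not searched. These profiles share the same libraries, and 4 points each are few.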

How the data were processed

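Mouse skin RNA was made into libraries with TruSeq Stranded Total RNA, per the labels' protocols. Trim Galore, DESeq2 and build GRCm38 (mm10) are named in the submitters' processing notes. The sources used here name no aligner, counter, annotation, version or design formula. What the authors deposited is 4 tables, each with a log2 fold change, a Wald statistic (a score) and a p-value and adjusted p-value from DESeq2, per the file headers. No values per library are in them and depth is unknown.

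With Python 3.11.15, pandas 2.3.3 and scipy 1.17.1, the SE was computed as fold change over Wald statistic, and 25 symbols turned into dates were dropped. The table named for perilesional and lesional skin was used as its header states, lesional over back skin. Of 1423 genes at exactly 0 in non-lesional over non-UV skin, 704 were positive in it and 0 negative. The GZ21T table was turned in sign; of 1003 genes at 0 in lesional over non-UV skin, 253 were higher with GZ21T and 0 lower. Lesional over perilesional skin and GZ21T lesional over non-lesional skin were derived from 3 tables each. Their variances are exact if 1 fit with the group alone gave all tables. Lesional over non-lesional skin came from 2 tables, with the largest SE that keeps every group's variance at or above 0. The derived p-values are two-sided normal tails, with Benjamini-Hochberg adjustment over all genes. The derivation was run on simulated data drawn under the same assumption of 1 fit. That run checks the arithmetic and cannot test the assumption. Intervals are 95% (1.96 SE).

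All 10 members were reported. Lists of pathway genes and of cell type markers were described by counts and medians. Of each pathway list up to 4 genes with the smallest adjusted p were named, or 2 where none passed. Members and lists were chosen with earlier results of these data known.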

Additional observations from a re-analysis of the deposited data

How the results depend on the processing

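No paired analysis was possible because the tables hold no values per library, and for the same reason leaving out a replicate was not run. Of 47 recomputed counts of changed members 35 lay within 1.5 times the reported count. A reported count of 0 that stayed at 0 is among the 35. The reported count was 0 in perilesional over non-lesional, lesional over non-lesional and GZ21T lesional over non-lesional skin. The 35 is thus no measure of how well the calls held. Adjusting over genes tested in all 4 tables, which leaves 7 members tested, gave 1 member in non-lesional over non-UV skin, 3 in lesional over non-UV skin and 1 in lesional over perilesional skin. With no filter on low counts the first of these was 1. With the spread taken from the genes the counts were 1 (non-lesional over non-UV), 0 (lesional over non-UV), 0 (lesional over perilesional) and 0 (GZ21T over placebo lesions). Changed genes themselves can widen that spread, which was 1.92 in lesional over non-UV skin, but their part in it was not tested. At an adjusted p under 0.1, perilesional over non-lesional skin gave 1 and GZ21T over placebo lesions gave 2. Summing the variances of all tables gave 0 members and 0 genes in lesional over perilesional skin. Equal shares of the variance gave 2 in lesional over non-lesional skin. Centring on the median turned the sign of 6 values near 0: Erbb3 to -0.08 in lesional over non-UV and -0.04 in lesional over perilesional skin, Egfr to -0.06 in lesional over non-lesional skin, Map2k1 to 0.01 and Adam17 to 0.00421 in non-lesional over non-UV skin and Cbl to 0.04 in GZ21T over placebo lesions. Among all genes, counts more than 1.5 times from the reported one were as follows. The spread from the genes gave 127 for 235 (non-lesional over non-UV), 2 for 17 (perilesional over non-lesional), 14 for 2785 (lesional over non-UV), 12 for 81 (lesional over perilesional), 0 for 393 (GZ21T over placebo lesions) and 12 for 0 (GZ21T lesional over non-lesional). An adjusted p under 0.1 gave 30 for 17, 152 for 81, 1092 for 393 and, in lesional over non-lesional skin, 2 for 0. A fold change of at least 1 on the log2 scale gave 1502 for 2785 and 189 for 393. No filter gave 209 for 393, the largest deposited SE 53 for 81, and equal shares 701 for 0. The cause of these changes was not tested. Without counts per library, depth and its limits cannot be given.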
